A study of Mus musculus with 24 samples.

Results

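The 6 gene rows of 1 stretch of mouse chromosome 3 are described here: Med12l, Igsf10, Gpr171, P2ry12, P2ry13 and P2ry14, which are 6 of the 57010 gene rows in each deposited count table. They were taken by gene name in both tables, and the locus was selected because some of its rows were nearly lost from cells labelled Mkrn3ox. Values of these 6 rows from the fractionation experiment, which served for that selection, are therefore given as a description with no test. For the 6 rows, tests are given in the RNA immunoprecipitation (RIP) experiment alone, whose libraries were not used to select them. Other genes are tested in both.

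The cells were GT1-7, an immortalised mouse hypothalamic line that makes gonadotropin-releasing hormone (GnRH), and RNA was sequenced from its 3′ ends by CEL-seq2 in 24 libraries, 3 in each of 8 groups. The fractionation experiment compared wild-type (wt) cells with cells stably expressing GFP-Mkrn3 (Mkrn3ox), each as total RNA and as cytoplasmic RNA. The RIP experiment used GT1-7 cells given 6 µg of a GFP plasmid or of a GFP-Mkrn3 plasmid for 24 h, and for each plasmid compared 5% of the lysate (input) with the RNA recovered on GFP-trap beads (IP). Mkrn3 is a makorin RING-finger protein linked to the timing of puberty. The labels do not say whether Mkrn3ox is a single clone or whether libraries of 1 group stem from different cultures, so p-values measure only the spread between these libraries, which may be technical.

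Med12l encodes a paralogue of Med12, a subunit of the kinase module that docks on the Mediator complex and acts between transcription factors and RNA polymerase II. Igsf10 encodes a large secreted immunoglobulin-superfamily protein, and human variants of it have been linked to delayed puberty through the migration of GnRH neurons. The other rows encode G protein-coupled receptors: P2ry12 and P2ry13 respond to ADP and are well known from microglia and, for P2ry12, platelets, P2ry14 responds to UDP-glucose, and Gpr171 to BigLEN, a peptide cut from the precursor proSAAS (Pcsk1n).

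In the RefSeq annotation of GRCm38.p6, Med12l (ENSMUSG00000056476) spans chr3:59005419-59318446 on the plus strand, 313 kb in all. Gpr171 (ENSMUSG00000050075, chr3:59096448-59101821), P2ry14 (ENSMUSG00000036381, chr3:59114623-59153492), P2ry13 (ENSMUSG00000036362, chr3:59207892-59210882) and P2ry12 (ENSMUSG00000036353, chr3:59216271-59262985) lie wholly within that interval, the last 3 on the minus strand. Igsf10 (ENSMUSG00000036334, chr3:59316735-59344438) lies on the minus strand and meets Med12l tail to tail. The 2 intervals share 1712 bp, or 6.18% of Igsf10. Because CEL-seq2 reads come from 3′ ends and the strand setting of the counting was not given in the sources used here, reads in an overlap cannot be assigned to 1 gene with certainty from the deposited rows.

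**Figure D1:**
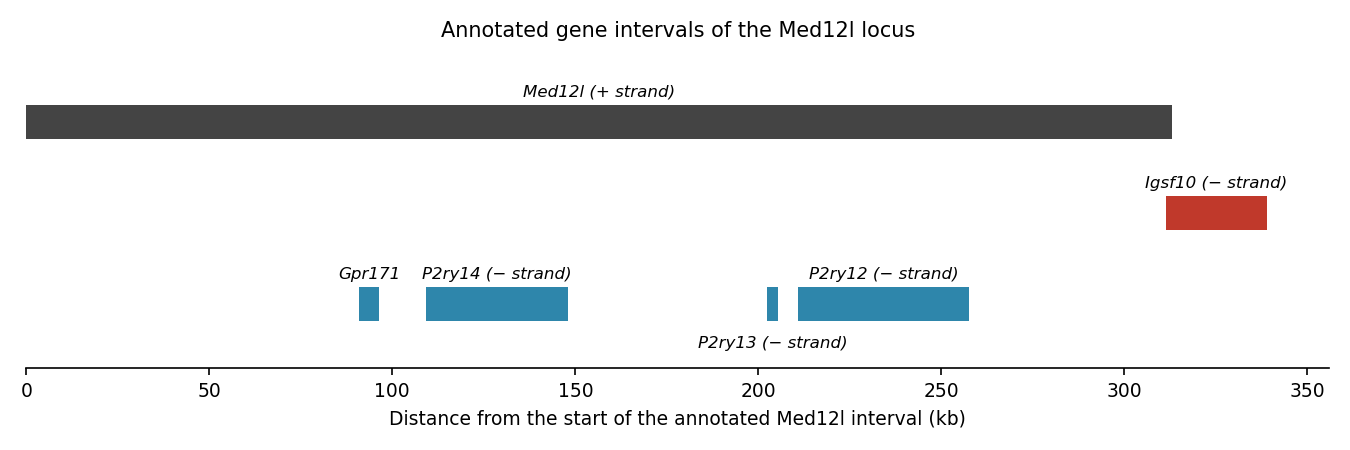
Annotated intervals of the 6 genes (bars), with distance from the start of Med12l in kb on the horizontal axis; rows of bars separate the host gene, Igsf10 and the nested receptor genes. The 4 receptor genes lie inside the 313 kb Med12l interval and Igsf10 overlaps its far end.

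The promoter sequences of 3 genes are shown because their rows contrast: Med12l and Igsf10 had counts in every wt and every RIP library, and P2ry12 in none. Each run holds the 250 bases before the transcription start that the RefSeq promoter table lists for GRCm38.p6, read 5′ to 3′ on the gene's own strand, with CpG dinucleotides in capitals. The runs cover chr3:59006728-59006977 (plus strand) for Med12l, chr3:59344257-59344506 (minus strand) for Igsf10 and chr3:59262986-59263235 (minus strand) for P2ry12. The listed start lies 1559 bases inside the annotated gene interval for Med12l and 182 bases inside it for Igsf10, so these runs overlap the intervals given above, while that of P2ry12 is at the end of its interval.
Med12l: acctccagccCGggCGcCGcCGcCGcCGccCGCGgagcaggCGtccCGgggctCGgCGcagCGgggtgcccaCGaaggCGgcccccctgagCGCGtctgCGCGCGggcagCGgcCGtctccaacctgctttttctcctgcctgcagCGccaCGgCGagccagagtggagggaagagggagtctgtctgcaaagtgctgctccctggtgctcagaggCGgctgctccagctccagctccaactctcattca
Igsf10: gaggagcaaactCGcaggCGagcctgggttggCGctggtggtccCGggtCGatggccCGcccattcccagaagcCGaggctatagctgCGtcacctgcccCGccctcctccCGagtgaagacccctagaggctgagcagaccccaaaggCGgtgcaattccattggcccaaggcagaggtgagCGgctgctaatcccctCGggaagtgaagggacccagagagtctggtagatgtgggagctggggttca
P2ry12: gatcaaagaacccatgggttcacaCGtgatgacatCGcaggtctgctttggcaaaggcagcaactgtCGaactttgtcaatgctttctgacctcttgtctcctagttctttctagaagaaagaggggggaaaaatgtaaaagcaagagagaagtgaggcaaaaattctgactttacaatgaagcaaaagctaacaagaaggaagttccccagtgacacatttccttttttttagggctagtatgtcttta
The Med12l run held 26 CpGs at 72% G+C, and 90.4% of the 32851 promoter entries of the same length held fewer CpGs. The Igsf10 run held 13 CpGs at 64% G+C (68.5% of entries held fewer), and the P2ry12 run held 3 at 41.6% G+C (29.0% held fewer). Across all entries the median was 6 CpGs and 52.4% G+C. P2ry13 had 5 CpGs, and the 4 entries for P2ry14 had from 1 to 4, so the receptor promoters that were matched were poorer in CpG than those of Med12l and Igsf10.

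On both strands, the GC box GGGCGG was found 1 time in the Med12l run and 2 times in the Igsf10 run, and in no run of P2ry12 or P2ry13. It was present in 32.7% of all entries. The letters CCAAT occurred 1 time each for Igsf10 and P2ry13 and 2 times in 1 of the 4 P2ry14 entries (33.8% of all entries), and TATAAA 1 time in that same P2ry14 entry (12.4%). These are matches of letters and not measured binding sites. Entries were matched for 5 of the 6 genes.

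Libraries of the fractionation experiment held 374386 to 759271 counts and those of the RIP experiment 6254703 to 14575652, so a row at a given level is measured with more counts in the RIP libraries. After the filter on low counts, 5033 genes were tested in the fractionation table and 13052 in the RIP table. Med12l, Igsf10 and Gpr171 passed in the first (3 of 6 rows) and Med12l and Igsf10 in the second (2 of 6). The Mkrn3 row, which checks the plasmid, stood at 3688 ± 74.2 CPM (CPM being the row's part of a library's counts on the TMM scale, with SD, n = 3) in GFP-Mkrn3 inputs and at 6.20 ± 2.33 CPM in GFP inputs. In the fractionation table that row held 0 counts in all 3 libraries labelled Mkrn3ox total, 6 counts over the 3 labelled Mkrn3ox cytoplasm, and 1 count over all wt libraries, so it does not show the overexpression that the label states. The 3′ end carried by the stable construct was not given in the sources used here, and Mkrn3ox below means libraries with that label.

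Med12l had counts in every wt library and almost none in Mkrn3ox. In wt total RNA the 3 libraries held 203, 151 and 200 counts (366, 249 and 268 CPM), and in Mkrn3ox total RNA 2, 3 and 1 counts. Every wt library was thus far above every Mkrn3ox library, with means of 294 ± 62.7 CPM and 3.61 ± 1.93 CPM (SD, n = 3 each). The ratio was 81.4 with an interval of 37.4 to 224 at 95% confidence that covers counting error only. In cytoplasmic RNA the wt libraries held 101, 111 and 90 counts (248 ± 12.8 CPM) and the Mkrn3ox libraries 0, 1 and 0 counts. The ratio there was 292 (56.0 to 12450.7), a value that rests on the single count of Mkrn3ox cytoplasm replicate 2.

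Igsf10, the neighbour at the far end of Med12l, was low in the same libraries. The wt total libraries held 66, 40 and 57 counts (119, 65.9 and 76.4 CPM), and the Mkrn3ox total libraries held none. With the floor of 3 counts over a group, Igsf10 was at least 49.1-fold lower in Mkrn3ox total RNA. In the cytoplasm, counts were 42, 27 and 36 in wt and 0, 3 and 0 in Mkrn3ox, a ratio of 34.6 (12.1 to 179), with all 3 Mkrn3ox counts in replicate 2. The wt and Mkrn3ox libraries did not overlap in either fraction for Med12l or Igsf10.

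Gpr171, the BigLEN receptor gene nested in the first part of Med12l, had a different distribution. Its row held 60, 57 and 65 counts in wt total RNA (96.4 ± 10.7 CPM), and it held 0, 1 and 0 counts in wt cytoplasm. In Mkrn3ox it held 0 counts in all 6 libraries, which makes it at least 54.3-fold lower in Mkrn3ox total RNA. In the cytoplasm no fold can be given, since 1 count stood against 0. P2ry14, the UDP-glucose receptor gene, was seen only in wt total RNA, with 9, 2 and 9 counts (10.5 ± 6.60 CPM), and was at least 5.93-fold lower in Mkrn3ox total RNA. It did not pass the filter on low counts, and without Mkrn3ox total replicate 3 the bound fell from 2.57 to 1.94 on the log2 scale.

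P2ry12 and P2ry13, the ADP receptor genes, held no count in any of the 24 libraries. A total of 0 of 6303670 fractionation counts allows a level of up to 0.476 CPM, and 0 of 105590627 RIP counts up to 0.0284 CPM. In total RNA, libraries of the 2 lines did not overlap for 4 of the 6 rows (Med12l, Igsf10, Gpr171 and P2ry14), and in the cytoplasm for 2 (Med12l and Igsf10). Among the 5033 genes tested, 12.4% had every Mkrn3ox library below every wt library in total RNA and 14.3% in the cytoplasm. P2ry12, P2ry13 and P2ry14 did not pass the filter on low counts, so these shares cover an unlike set of rows. With the edgeR test, 3.83% of genes were called lower in total RNA and 6.14% in the cytoplasm. As the rows were selected on this contrast, nothing is read from these comparisons.

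**Figure D2:**
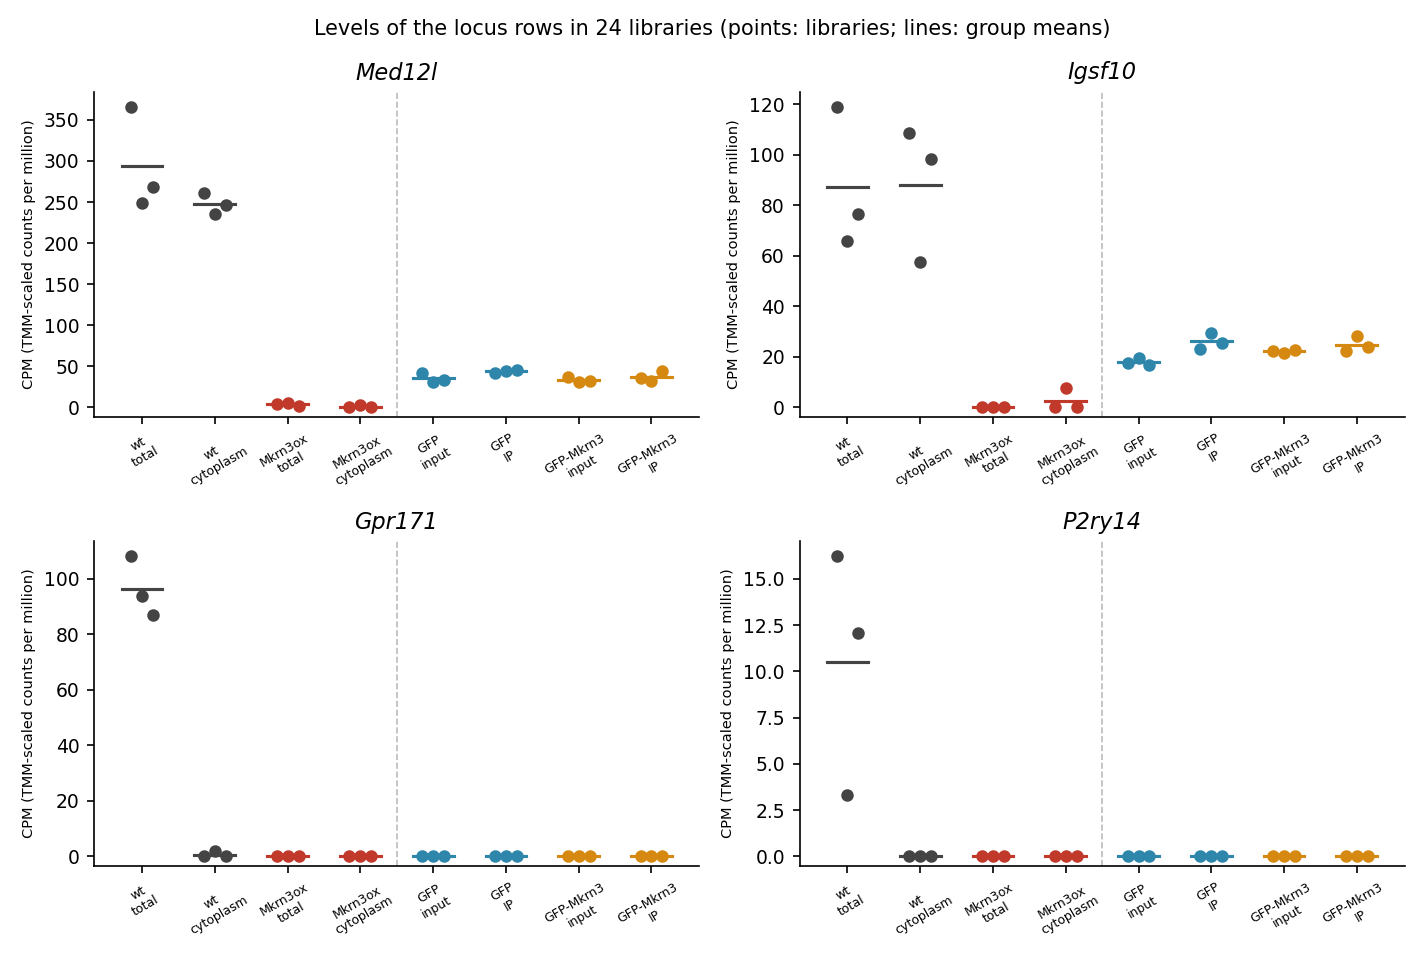
TMM-scaled CPM (vertical axis, a separate linear scale in each panel) of 4 rows in each of the 24 libraries (points) with group means (lines); the dashed line separates the fractionation from the RIP experiment, whose scales were set separately. Med12l and Igsf10 had counts in all wt and all RIP libraries, while Gpr171 and P2ry14 were seen in wt total RNA and, for Gpr171, by 1 count in wt cytoplasm.

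Genes around the locus gave a local reference. Of 47 annotated genes within 1 Mb or inside Med12l, 33 had 1 row in the tables, 23 had no count in the fractionation libraries and 3 passed the filter there, all 3 before the start of Med12l. These were Tsc22d2, a gene of the TSC22 transcriptional regulator family 539 kb away, Serp1, an endoplasmic reticulum stress protein gene 480 kb away, and Selenot, a selenoprotein gene 412 kb away. None of the 3 passed the edgeR quasi-likelihood test after Benjamini-Hochberg adjustment in either fraction. Tsc22d2 stood at 51.7 ± 13.04 CPM in wt total and 66.0 ± 16.3 in Mkrn3ox total RNA (a log2 difference of 0.35 ± 0.380 SE, adjusted p = 0.704), and in the cytoplasm it differed by 0.26 (adjusted p = 0.751). Serp1 differed by −0.18 in total RNA (SE 0.502, adjusted p = 0.897) and −0.63 in the cytoplasm (adjusted p = 0.512). Selenot, with 19 counts over wt total RNA, differed by 1.60 (SE 0.997, adjusted p = 0.434) and −0.44 (adjusted p = 0.844). No tested gene lay after the locus, so how far the low values extend past Igsf10 was not measurable at this depth.

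**Figure D3:**
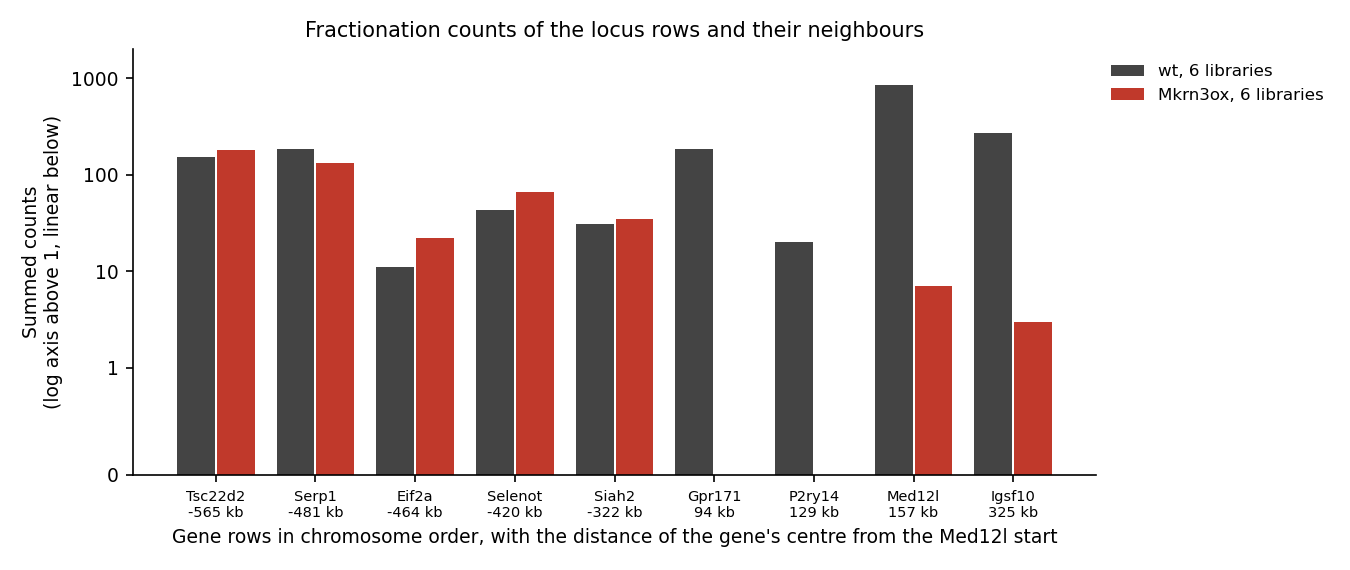
Counts summed over 6 wt and 6 Mkrn3ox fractionation libraries (vertical axis, logarithmic above 1 count and linear below) for the locus rows and the neighbouring genes with at least 10 counts, in chromosome order. The neighbours before Med12l had 11 to 186 counts in wt and 22 to 180 in Mkrn3ox, while Med12l went from 856 to 7, Igsf10 from 268 to 3, Gpr171 from 183 to 0 and P2ry14 from 20 to 0.

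Within wt cells, total and cytoplasmic RNA were set side by side row by row, again as a description. Med12l was at 294 ± 62.7 CPM in total and 248 ± 12.8 in cytoplasmic RNA, a ratio of 1.19 (1.02 to 1.36, counting error only), and the libraries of the fractions overlapped. For Igsf10 the ratio was 0.987 (0.774 to 1.28) and the libraries overlapped as well. Gpr171 was 136-fold higher in total RNA (20.7 to 4631), a value that rests on 1 count in wt cytoplasm replicate 2. Without that library the row had no cytoplasmic count. P2ry14 was at least 4.29-fold higher in total RNA. Among all genes tested, 3.16% were called lower in wt cytoplasm than in wt total RNA by edgeR, and 11.4% had all cytoplasmic libraries below all total libraries.

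The division of the locus counts among rows does not depend on scaling and showed the same contrast. In wt total RNA, Med12l held 60.3% of 919 locus counts, Gpr171 19.8% (exact Clopper-Pearson interval 17.3 to 22.5), Igsf10 17.7% and P2ry14 2.18%. In wt cytoplasm, Med12l held 74.0% of 408 counts, Igsf10 25.7% and Gpr171 0.245% (0.00621 to 1.36). In the 4 RIP groups, with 1306 to 2186 locus counts each, Gpr171 and P2ry14 held 0 and Igsf10 held 34.1% to 40.9%. For the GFP input, 0 of 1306 counts allows a Gpr171 share of up to 0.282% (exact interval), below the lower bound of 17.3% in wt total RNA.

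**Figure D4:**
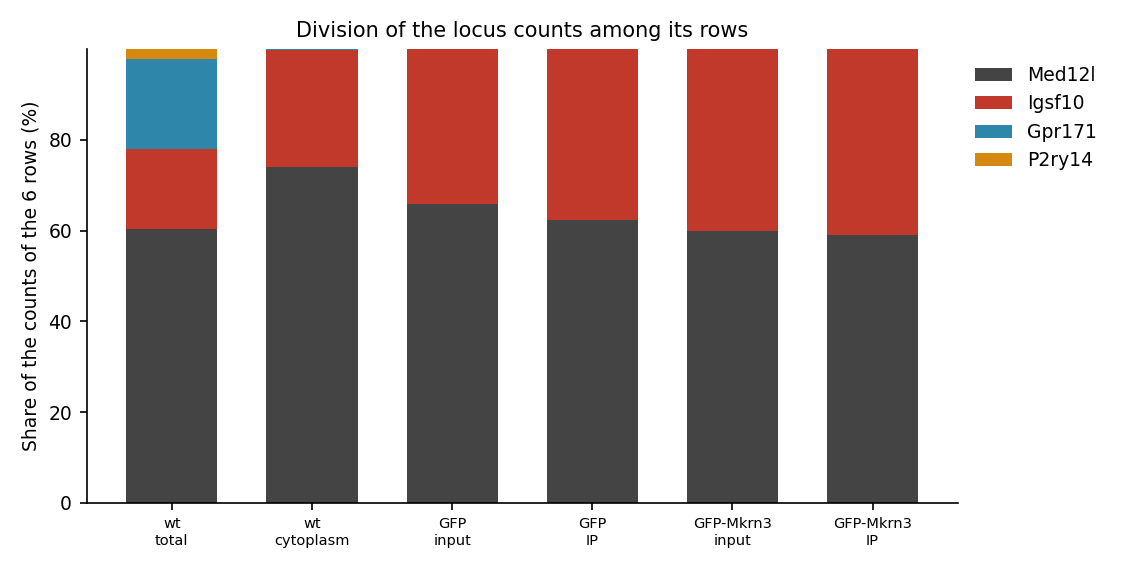
Share of the counts of the 6 rows held by each row (stacked bars, percent, summed over 3 libraries per group) in the 2 wt and 4 RIP groups; Mkrn3ox groups held 4 and 6 counts and are not drawn. Gpr171 held 19.8% in wt total RNA and at most 0.245% in the other groups.

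The balance of Igsf10 to Med12l also differed between the tables. The log2 ratio of the Igsf10 to the Med12l count in the same library (0.5 added to each) was −1.77 ± 0.147 in wt total and −1.53 ± 0.426 in wt cytoplasm (SD, n = 3). It was −0.96 ± 0.294 in GFP inputs, −0.75 ± 0.160 in GFP IPs, −0.58 ± 0.118 in GFP-Mkrn3 inputs and −0.59 ± 0.352 in GFP-Mkrn3 IPs. The highest wt value, −1.26, lay just under the lowest RIP value, −1.23, so the 6 wt and 12 RIP libraries did not overlap. The 2 experiments were sequenced to different depths and counted in separate tables, and the difference between them was not tested.

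In the RIP experiment, Med12l and Igsf10 were present in all 12 libraries, in cells carrying GFP-Mkrn3 as in those carrying GFP. Med12l inputs were at 41.6, 30.9 and 33.5 CPM with GFP and 36.4, 30.6 and 32.4 CPM with GFP-Mkrn3. The groups overlapped, and the log2 difference was −0.09 (SE 0.139, 95% interval −0.38 to 0.20, edgeR adjusted p = 0.973). Igsf10 inputs were at 17.7, 19.7 and 16.8 CPM with GFP and 22.2, 21.5 and 22.8 CPM with GFP-Mkrn3. For Igsf10 the log2 difference was 0.30 (SE 0.144, 95% interval −0.0042 to 0.60), higher with GFP-Mkrn3. The difference did not pass the edgeR test (adjusted p = 0.889). So 0 of the 2 rows tested were called, against 0.0153% of all genes (2 of 13052). The lower bounds of −0.38 for Med12l and −0.0042 for Igsf10 apply to the mean of all cells in an input after 24 h, given the spread between these libraries. The labels do not give the share of cells that carried the plasmid. A fall within those cells was therefore not measured.

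The GFP pull-down itself recovered Igsf10 above its input. The GFP IP libraries were at 23.1, 29.4 and 25.6 CPM. The log2 difference from the GFP inputs was 0.53 (SE 0.144, 0.23 to 0.83, edgeR adjusted p = 0.00471), which passed under all 14 alternatives. Med12l was at 41.9, 43.5 and 45.5 CPM in the GFP IP and differed from its inputs by 0.31 (SE 0.138, 0.02 to 0.59). That did not pass (edgeR adjusted p = 0.0713), but it passed without GFP input replicate 1 (0.42, adjusted p = 0.0212). Of the 2 rows, 1 was therefore called higher, against 25.1% of genes called higher and 50.3% called in either direction.

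No enrichment with GFP-Mkrn3 passed for either row. In the GFP-Mkrn3 IP, Med12l was at 35.9, 32.5 and 43.7 CPM, overlapping its inputs (0.17, −0.12 to 0.45, edgeR adjusted p = 0.389). Igsf10 was at 22.1, 28.2 and 23.7 CPM, overlapping its inputs too (0.16, −0.13 to 0.45, adjusted p = 0.421). In this comparison 26.7% of genes were called.

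Set directly against the GFP IP, the GFP-Mkrn3 IP differed by −0.23 for Med12l (−0.51 to 0.06, edgeR adjusted p = 0.201) and by −0.07 for Igsf10 (−0.37 to 0.22, adjusted p = 0.715), with 37.6% of genes called. Without GFP-Mkrn3 IP replicate 3, Med12l passed as lower (−0.35, adjusted p = 0.0391). The change from input to IP with GFP-Mkrn3 minus that with GFP, here called enrichment beyond GFP, was −0.14 for Med12l (−0.55 to 0.27, adjusted p = 0.638). It was −0.37 for Igsf10 (−0.79 to 0.05, adjusted p = 0.188), with 24.3% of genes called. The upper bounds leave out an enrichment beyond GFP above 0.27 for Med12l and 0.05 for Igsf10 on the log2 scale under TMM scaling.

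**Figure D5:**
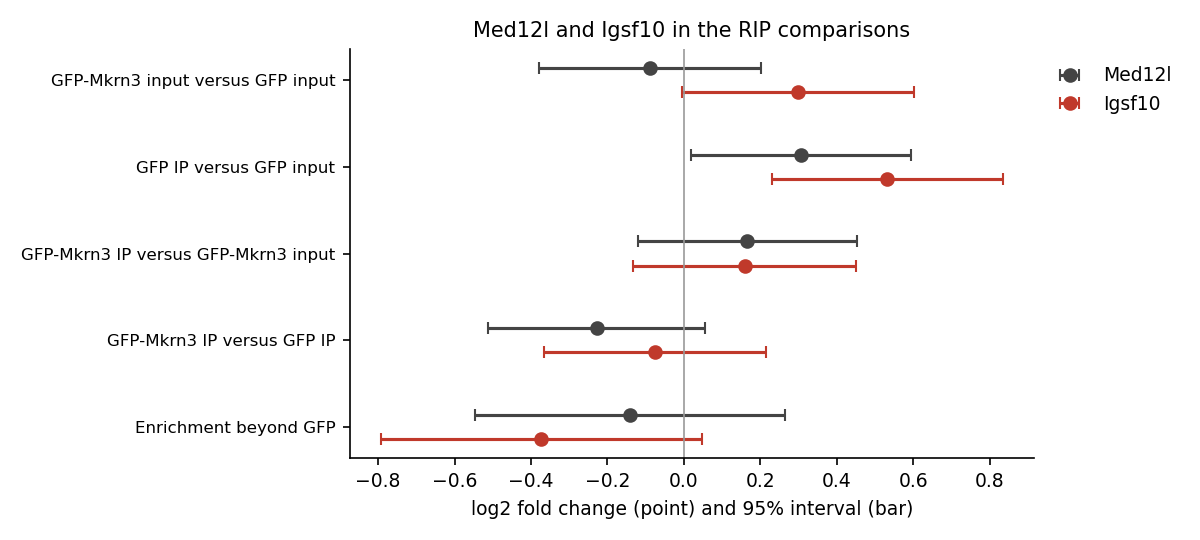
Log2 fold changes (points) with 95% intervals (bars) of Med12l and Igsf10 in the 5 RIP comparisons, fitted over 12 libraries with edgeR. Only Igsf10 in GFP IP versus GFP input passed after adjustment (0.53, adjusted p = 0.00471).

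Other genes of the Mediator kinase module were not called in Mkrn3ox. Of 5 tested (Med13, Med13l, Cdk8, Cdk19 and Ccnc), 0 were called in total RNA (median log2 difference 0.37, against −0.0063 over all genes) or in the cytoplasm (0.084 against 0.03). Over all genes, 3.56% were called higher and 3.83% lower in total RNA, and 4.31% and 6.14% in the cytoplasm. Med13, which links the module to core Mediator, was at 51.6 ± 13.1 CPM in wt and 106 ± 13.8 CPM in Mkrn3ox total RNA (edgeR adjusted p = 0.181). Med13l, its paralogue, was at 564 ± 133 and 481 ± 290 CPM (adjusted p = 0.806). Of the 6 module genes tested in the RIP table, 0 were called between the inputs, against 0.0153% of all genes. In the enrichment beyond GFP, 2 of 6 were lower, against 11.1% of all genes: Med13 (−0.65, adjusted p = 0.00301), and Cdk19, a kinase of the module (−0.37, adjusted p = 0.0481). Cdk19 passed in 5 of 19 alternatives and Med13 in all 19.

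Of the remaining 26 Mediator subunit genes, 13 were higher and 0 lower in that comparison (median 0.60 against 0.04 over all genes, and 13.2% of all genes called higher). Examples were Med21 (1.63, edgeR adjusted p = 0.000172), Med28 (1.05, adjusted p = 0.000387) and Med10 (1.44, adjusted p = 0.000457). Leaving out GFP input replicate 2 reduced the count to 8. For Med21, as for Med28 and Med10, the GFP-Mkrn3 IP was close to its own input (20.6 ± 0.884 against 21.2 ± 3.12 CPM for Med21). The GFP IP against its input was lower for Med21 (−1.68, edgeR adjusted p = 5.3e-07), Med28 (−1.13, adjusted p = 6.8e-07) and Med10 (−1.42, adjusted p = 3.0e-06). There 14 of 26 were called lower and 5 higher, against 50.3% of all genes called in either direction. Between the inputs 0 of 26 were called, and in Mkrn3ox 0 of 9 tested in either fraction. Of these 9, Med17 lay just over the threshold as lower in Mkrn3ox total RNA (−3.59, SE 1.12, edgeR adjusted p = 0.0533). In the cytoplasm Med17 differed by −1.98 (adjusted p = 0.494). The median log2 difference of the 9 was 0.18 in total RNA and 0.60 in the cytoplasm.

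Nucleotide receptors outside the locus were sparse. Of 20 listed, 8 had a count in the fractionation table and 1 was tested, the ATP-gated channel gene P2rx4, at 22.9 ± 4.99 CPM in wt and 21.9 ± 17.8 in Mkrn3ox total RNA (edgeR adjusted p = 0.973). Among RIP libraries 16 had a count and 6 were tested. None was called between the inputs (0.0153% of all genes) or in the enrichment beyond GFP (24.3% of all genes), where alternatives called 0 to 2. Adora1, an adenosine receptor gene, was at 181 ± 5.56 CPM in GFP-Mkrn3 inputs and 153 ± 2.75 in the IP. It was called lower in that comparison (−0.24, edgeR adjusted p = 0.0293), 1 of 6 tested, where 26.7% of all genes were called in either direction. Beyond GFP it differed by −0.21 (adjusted p = 0.181). Adora2b, another adenosine receptor gene, lay just over the threshold beyond GFP (1.09, edgeR adjusted p = 0.0501). Between the IPs it was called higher with GFP-Mkrn3 (1.26, adjusted p = 0.0015), where 37.6% of all genes were called. Of the 14 genes that release or break down nucleotides, 1 was tested in the fractionation (Ugp2, which makes UDP-glucose) and 5 in the RIP table, and 0 were called in the Mkrn3ox, input or enrichment comparisons.

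Genes around the Gpr171 ligand were measured without Gpr171 itself in most groups. Pcsk1n, the proSAAS precursor, had 3 or 4 counts over each fractionation group and was not tested there. Cpd and Cpe, carboxypeptidases that trim peptide ends, were the 2 tested genes of this list of 5, and both were lower in Mkrn3ox cytoplasm. Cpd went from 339 ± 26.7 to 98.4 ± 48.4 CPM (−1.78, SE 0.311, edgeR adjusted p = 0.000614), and Cpe from 31.7 ± 15.6 CPM to 0 counts (adjusted p = 0.00766), where 6.14% of all genes were called lower. In total RNA Cpe was at 20.7 ± 7.79 CPM in wt and 2.22 ± 3.84 in Mkrn3ox (−3.04, adjusted p = 0.108) and Cpd at 224 ± 66.6 and 217 ± 25.1 (adjusted p = 0.949). Neither was called there, and 1 of the 2 was called lower without Mkrn3ox total replicate 3. In the enrichment beyond GFP, Pcsk1n was higher (1.40, SE 0.345, adjusted p = 0.00673) and Cpd lower (−0.59, SE 0.114, adjusted p = 0.00128), 2 of 4 tested, against 24.3% of all genes called in either direction. Neither was called in the GFP-Mkrn3 IP against its own input (Pcsk1n 0.36, edgeR adjusted p = 0.280, and Cpd 0.0046, adjusted p = 0.974). The GFP IP against its input was lower for Pcsk1n (−1.05, adjusted p = 0.00196) and higher for Cpd (0.59, adjusted p = 7.9e-06).

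Among 28 genes of GnRH neuron migration and puberty timing, the setting in which Igsf10 is known, 11 were tested in the fractionation. Sema3e, a semaphorin guidance cue, was higher in Mkrn3ox total RNA (3.84 ± 2.96 to 66.8 ± 10.9 CPM, 4.08, SE 0.752, edgeR adjusted p = 0.00125), 1 of 11 against 3.56% of all genes called higher. Nrp1, a semaphorin co-receptor, was lower in Mkrn3ox cytoplasm (60.0 ± 5.61 to 3.77 ± 2.17 CPM, −3.87, SE 0.725, adjusted p = 0.00115), also 1 of 11, against 6.14% of all genes called lower. Neither gene was called in the other fraction. Sema3e went from 12.3 ± 10.5 to 25.2 ± 11.7 CPM in the cytoplasm (0.97, edgeR adjusted p = 0.442). In total RNA Nrp1 went from 50.5 ± 28.6 to 28.6 ± 19.7 CPM (−0.83, adjusted p = 0.483). Of 18 tested in the RIP table, 0 were called between the inputs. In the enrichment beyond GFP 4 were lower and 1 higher, so 5 of 18 were called, a share near the 24.3% of all genes. Among them, Nrp1 (−0.71, adjusted p = 0.000318), Nrp2 (−0.72, adjusted p = 0.000431) and Wdr11 (−0.57, adjusted p = 0.00372) had the lowest p-values. Igsf10, at −0.37, lay on the same side of 0 and did not pass.

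Markers of the cell types known for P2ry12 were mostly absent. In the fractionation, microglial Cx3cr1 and Tmem119 were at 0, Ptprc had 1 count, and 2 or 3 of 17 listed genes had counts in a group. Csf1r was at 249 to 371 CPM by group, and the summed level of the list was 292 to 421 CPM across wt libraries and 435 to 567 CPM across Mkrn3ox libraries. In the RIP libraries Ptprc was at 0, Cx3cr1 at 0 to 2 counts and Tmem119 at 14.4 ± 3.11 CPM in GFP inputs, with a summed level of 121 to 166 CPM across libraries. Of 8 platelet markers 1 or 2 had counts in a fractionation group, Pf4 was at 0, and the sum was 12.5 to 35.5 CPM. Gnrh1, which defines GT1-7, was at 77.3 ± 9.07 CPM in wt total RNA and 90.0 ± 43.1 in Mkrn3ox total RNA, while Tubb3, a neuronal tubulin, was at 0 in wt total RNA and at 7.72 ± 1.33 CPM in Mkrn3ox total RNA. The neuron list summed to 512 to 823 CPM across wt and 408 to 555 CPM across Mkrn3ox libraries. Snap25, Stmn2, Syt1 and Syp of that list had 0 to 6 counts over each fractionation group. Rab3a, a synaptic vesicle GTPase, was lower in Mkrn3ox total RNA (473 ± 78.9 to 286 ± 20.3 CPM, edgeR adjusted p = 0.0303). That was 1 of 3 tested, against 3.83% of all genes called lower. In the cytoplasm 1 of 3 was called lower as well, against 6.14%, and Rab3a went from 595 ± 122 to 265 ± 13.3 CPM. Map2, a microtubule protein of dendrites, was at 33.1 ± 16.6 CPM in wt and 65.4 ± 27.9 CPM in Mkrn3ox total RNA (edgeR adjusted p = 0.308). The listed markers thus did not differ in 1 direction. In these bulk samples, fewer cells of a type and less RNA per cell cannot be told apart, and the part of such markers in the locus values was not tested.

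The rows whose log2 CPM followed each locus row most closely over the 12 fractionation libraries were found by Pearson's r, given as a description, since the 6 wt and 6 Mkrn3ox points form separate clusters. For Med12l these included Gm48283 (r = 0.986), Gask1b (0.985), Plppr4 (0.985) and Pde6h (0.985). Gask1b was at 146 CPM in wt total, 150 in wt cytoplasm, 0.614 in Mkrn3ox total and 1.68 in Mkrn3ox cytoplasm. Igsf10 ranked 12th for Med12l (r = 0.974), and Med12l 5th for Igsf10, behind Pde6h, Gm48283 and Gask1b among others. Gpr171 followed other rows: Gm48740 (0.994), Atxn7l1os1 (0.986), the long non-coding RNA Xist (0.973), Gm15963 (0.963) and Zbtb44 (0.943). The first 4 were, as Gpr171, high in wt total RNA alone. Xist was at 242 CPM in wt total, 4.61 in wt cytoplasm, 0 in Mkrn3ox total and 5.06 in Mkrn3ox cytoplasm. The r of Gpr171 with Med12l was 0.627, rank 524 of the rows by likeness to Med12l.

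Over the 12 RIP libraries, where the line does not vary, Med12l and Igsf10 did not follow each other closely (r = 0.314). The rows most like Med12l were Trim33 (0.960), Uvssa (0.947), Zup1 (0.945), Zfp143 (0.938) and Zfp638 (0.938). Those most like Igsf10 were Twf1 (0.927), Prr14l (0.920), Mcm8 (0.901), Ptx3 (0.893) and Pias1 (0.885). Trim33 was at 83.8 CPM in the GFP IP and 64.6 to 72.3 CPM in the other 3 groups, an order shared with Med12l, whose highest group mean was also the GFP IP (43.6 ± 1.80 CPM).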

How the data were processed

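The authors deposited 2 tables of raw counts, whole numbers per gene row and library, 1 for the fractionation and 1 for the RIP experiment. Per the submitters' processing notes the tools were cutadapt, STAR and HTSeq and the build was mm10. What was not given in the sources used here includes their versions, the annotation, the strand setting and whether molecular identifiers were counted. The RIP table holds gene IDs alone, and symbols came from the IDs paired with names in the other table; all 6 locus IDs carried the same symbol in the reference name table.

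Each table was fitted separately over its 12 libraries with edgeR 4.0.16 (R 4.3.3, limma 3.58.1): TMM scaling, filterByExpr by group, group means without covariates and two-sided quasi-likelihood F tests. P-values were adjusted by Benjamini-Hochberg over all tested genes, and genes under 0.05 were called. CPM values are on the TMM scale. A group at 0 was given a floor of 3 counts over the group; ratios of counts carry 95% exact counting intervals, and shares exact Clopper-Pearson intervals. Intervals and floors cover counting error only. Named genes were the 6 rows, up to 5 rows with the highest Pearson r of log2 CPM (prior count 2) for each locus row with at least 20 counts, annotated genes within 1 Mb, and up to 3 genes per list (the called ones with the lowest adjusted p, otherwise the most abundant). Some genes that the rule names are not reported here. The rows and the 9 gene lists were chosen with earlier results of these data known. Promoters came from a RefSeq table of GRCm38.p6. Alternatives were DESeq2 1.42.0 size factors or its test, library size scaling, other filters, the compared groups alone, the replicate number as a block, and leaving out each library. The fits were tested on simulated data. Python 3.11.15, numpy 2.4.6, pandas 2.3.3, scipy 1.17.1 and matplotlib 3.10.9 were used for tables, intervals and figures.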

Additional observations from a re-analysis of the deposited data

How the results depend on the processing

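Igsf10 in GFP IP versus GFP input passed under all 14 alternatives (adjusted p up to 0.0369), and neither Med12l nor Igsf10 passed for enrichment beyond GFP in any of 19. Scaling by library size alone shifted the median of all genes by −0.115 in GFP IP versus input, 0.113 in GFP-Mkrn3 IP versus input, 0.208 between the IPs, 0.233 beyond GFP, 0.375 for Mkrn3ox in the cytoplasm and −0.219 for wt cytoplasm against total RNA. Under it Igsf10 turned to 0.10 between the IPs (adjusted p = 0.599) and Med12l to 0.051 beyond GFP (adjusted p = 0.875), neither called; the genes lower in Mkrn3ox cytoplasm went from 309 to 189, and the log2 of wt over Mkrn3ox cytoplasm for Med12l from 8.19 to 7.85 and of wt total over cytoplasm for Gpr171 from 7.09 to 7.34. The split of higher to lower calls went from 3274 and 3291 to 2554 and 3952 for the GFP IP, from 1812 and 1675 to 2599 and 1263 for the GFP-Mkrn3 IP, from 2661 and 2246 to 4104 and 1154 between the IPs, from 1724 and 1454 to 2845 and 603 beyond GFP, from 179 and 193 to 252 and 163 for Mkrn3ox total RNA, and from 217 and 309 to 507 and 189 for its cytoplasm. Genes called between the inputs were 2, and 34 with no filter, 6 with the DESeq2 test and 4 with the compared groups alone. Leaving out 1 library gave 1 to 3 genes there, 117 to 149 lower genes in Mkrn3ox total RNA and 117 to 136 in Mkrn3ox cytoplasm against total; it gave log2 differences of −0.18 to 0.043 for Med12l between the inputs, 0.22 to 0.42 for Med12l in the GFP IP, −0.35 to −0.13 for Med12l and −0.19 to 0.024 for Igsf10 between the IPs. The log2 of wt over Mkrn3ox then ranged from 4.98 to 5.78 for Igsf10 and 5.13 to 5.83 for Gpr171 in total RNA (1.94 to 2.99 for P2ry14), and in the cytoplasm from 4.53 to 5.35 for Igsf10 and 6.18 to 8.22 for Med12l; for Gpr171 wt total over cytoplasm ranged from 4.59 to 7.16, and for P2ry14 from 1.40 (without wt cytoplasm replicate 2) to 2.53. The lowest values for Med12l and Gpr171 leave out the library with the single count, and fewer libraries lower the bound from the floor. Directions that turned without 1 library, none called, were Serp1 in total RNA (−0.50 to 0.77, positive without wt total replicate 3), Med13l in total RNA (−0.82 to 0.11, positive without Mkrn3ox total replicate 2), Selenot in the cytoplasm (−0.81 to 0.19, positive without wt cytoplasm replicate 2) and Med13 in the cytoplasm (−0.35 to 0.63, negative without wt cytoplasm replicate 2 and, at −0.14, without Mkrn3ox cytoplasm replicate 1). Where not stated, the cause was not tested. Same-numbered libraries of a line or plasmid did not deviate together (r −0.146 to 0.0144 in the RIP and −0.0183 to 0.0377 in the fractionation table). In these, 1 of 12 and 5 of 12 libraries correlated best with their own number. Across plasmids, same-numbered RIP libraries had r from −0.0585 to 0.238. These values do not settle whether same-numbered libraries share a lysate or culture. With the replicate block within plasmid, genes called were 6218 for the GFP IP, 3001 for the GFP-Mkrn3 IP and 2642 beyond GFP. No call of Med12l or Igsf10 changed under it. At 374386 to 759271 counts a library, the fractionation left P2ry14 at 20 counts in all.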
